A study of Rattus norvegicus with 3 samples.

Results

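The nuclear genes of oxidative phosphorylation were examined in rat osteoblast-like cells given polyphosphate. They were chosen by name alone: every non-control probe whose gene name in the array files begins with Nduf (complex I), Sdha to Sdhd (complex II, with its assembly factors), Uqcr (complex III), Cox4 to Cox8 (complex IV) or Atp5 (complex V). The rule found 94 genes of 26115 gene names on the array, with 117 of its 30367 probes. Complex I holds 47 of them, complex II 5, complex III 8, complex IV 16 and complex V 18. Of the 94 genes, 91 had a probe well above background on all 3 arrays. Cox8c, Ndufaf2 and Cox8b did not.

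Oxidative phosphorylation is the last stage of respiration, in the inner mitochondrial membrane. Complexes I and II pass electrons from NADH and succinate to ubiquinone, complex III passes them on to cytochrome c, and complex IV hands them to oxygen. The proton gradient built on the way drives complex V, the ATP synthase. All complexes but complex II combine subunits encoded in the nucleus with subunits encoded in mitochondrial DNA. In differentiating osteoblasts respiration supplies ATP for matrix secretion alongside an active glycolysis.

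The cells were ROS17/2.8, a clonal rat osteosarcoma line labelled as osteoblast. The high dose group received polyphosphate, a linear chain of phosphate residues, at 1 mg/ml, the low dose group received 0.01 mg/ml, and the control group received none. The treated cells were exposed for 24 h, and no time is stated for the control cells. All groups were confluent and grew in mineralization medium, which holds L-ascorbate phosphate and β-glycerophosphate. There was 1 one-colour array per group, so nothing below has a replicate check or a p-value.

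Levels are given as relative signal, the background-subtracted probe signal as a multiple of the 75th percentile of its own array. Differences are log2 ratios of relative signal, and the ± beside them is the spot error, a standard error from the scatter between repeat spots of a probe. It does not cover labelling, culture or biological variation. In such bulk RNA, fewer cells of a type and less RNA per cell cannot be told apart. The arrays had 55.9% to 57.2% of probes well above background and 75th percentiles of 926 to 964, and no spot was saturated. On all 3 arrays 8 of 10 osteoblast markers were well above background, without Phex and Dmp1. By the same rule 3 of 5 macrophage, 3 of 5 endothelial, 4 of 6 muscle and 2 of 5 chondrocyte markers passed on every array. Of 5 adipocyte markers 1 or 2 passed, so passing the rule does not identify a cell type. With so few arrays, their number sets the precision.

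The first comparison set the high dose against the control. The respiratory genes differed little as a group, and their median log2 ratio was -0.013, beside -0.0087 over all 14495 measured genes. Between the 25th and the 75th percentile the members ran from -0.067 to 0.038, against -0.11 to 0.093 for all measured genes. Of the 91 measured members 41 lay above 0, where 47.9% of all measured genes did, and 50 lay below, where 52.1% did. At least 1.2-fold, 2 were higher, where 7.16% of all measured genes were, and 3 were lower, where 7.87% were. None was 1.5-fold apart in either direction, a size that 0.828% of all measured genes reached upward and 0.711% downward. Genes at the level of the central 80% of members (called genes at the members' level here) reached 1.2-fold in 2.46% upward and 2.51% downward. That set spans the members' range of level but is not matched to them, and its genes were mostly dimmer. Its median log2 relative signal was 1.33, beside 3.35 for the members. For low dose against control the medians were 1.40 and 3.39, and for high dose against low dose 1.37 and 3.35.

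**Figure D1:**
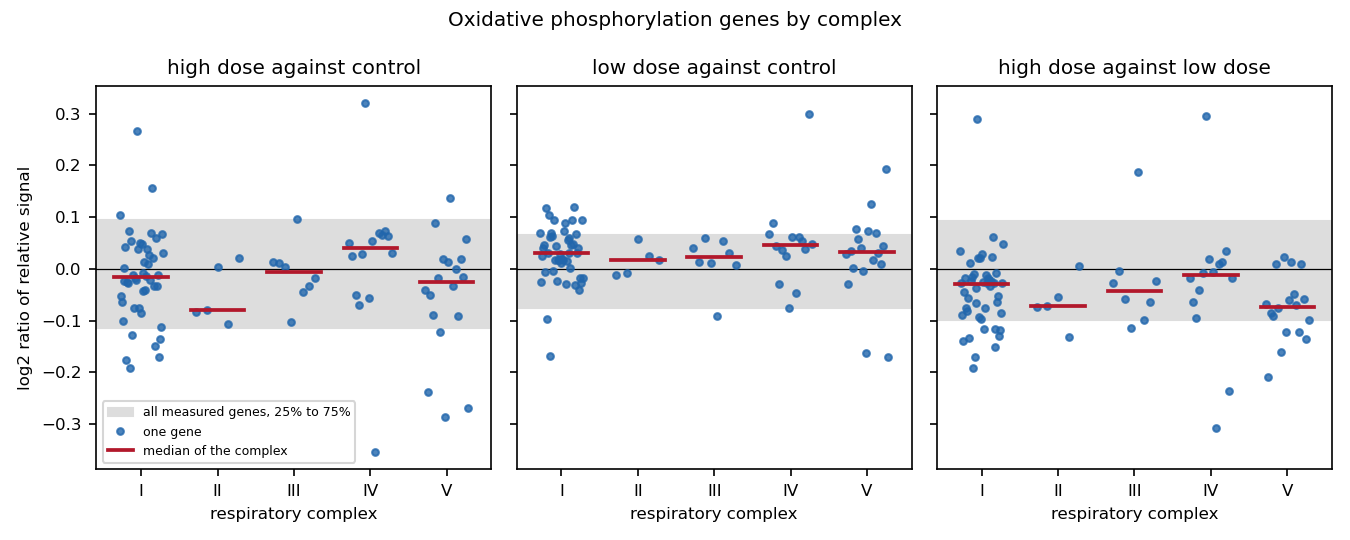
Log2 ratios of relative signal (vertical axis, no unit) of the 91 measured genes by complex, in the 3 comparisons. Each point is a gene, red lines are medians of a complex, and the grey band is the range from the 25th to the 75th percentile of all measured genes. Most members lie inside or near the band, and none is 1.5-fold apart.

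Most members lay close to 0. Of the 91, 72 (79.1%) lay within 0.1 log2 units of 0, where 48.2% of all measured genes and 59.7% of genes at the members' level did. Their log2 ratios had an SD of 0.10, with 0.20 over all measured genes and 0.13 at the members' level. By the spot error, 7 members were higher by more than 2 errors, where 10.7% of all measured genes were, and 12 were lower, where 12.8% were. At the members' level 12.8% of genes were higher and 17.5% lower by that rule. The higher ones were Cox6a2, Ndufaf4, Ndufc2, Ndufa1, Ndufa6, Cox7b and Ndufv2. The lower ones were Cox6c-ps1, Atp5g3, Atp5sl, Atp5b, Ndufa3, Ndufs7, Ndufs3, Ndufs8, Ndufa8, Atp5g1, Ndufv1 and Atp5j2. Centring instead on the spike-ins, control RNAs added to each sample, raised every gene by 0.15 and put Ndufs3, Ndufs8, Ndufa8, Atp5g1, Ndufv1 and Atp5j2 above 0.

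**Figure D2:**
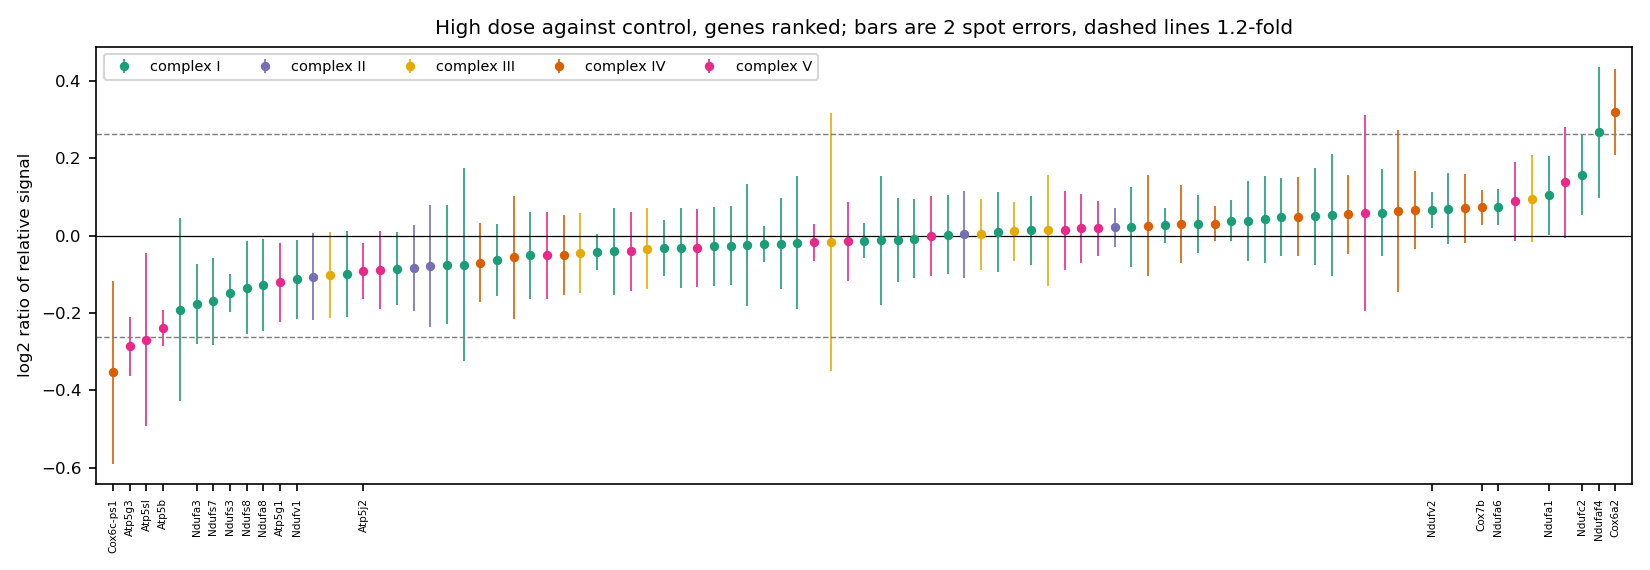
Log2 ratio of relative signal for high dose against control (vertical axis) of the 91 measured genes, ranked and coloured by complex. Bars are 2 spot errors, dashed lines mark 1.2-fold, and genes apart by more than 2 spot errors are named on the horizontal axis. The genes furthest from 0 are Cox6c-ps1 and Atp5g3 at the lower end and Ndufaf4 and Cox6a2 at the upper end.

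Complex I takes electrons from NADH, and its 46 measured genes had a median of -0.016 for high dose against control, with 5 higher and 6 lower by more than 2 spot errors. Its 7 nuclear-encoded core subunits, which carry the flavin, the iron-sulphur clusters and the ubiquinone site, had a median of -0.11, while the 33 accessory subunits had a median of -0.013. Centring on the spike-ins instead turned both medians positive, to 0.041 and 0.14. Among the core subunits, 4 were lower by more than 2 spot errors and 1 was higher, where 17.5% of genes at the members' level were lower and 12.8% higher.

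Ndufs7, which forms part of the ubiquinone site, had relative signals of 5.86 with the high dose, 6.42 with the low dose and 6.60 in the control, a log2 ratio of -0.17 ± 0.06 for high dose against control. Ndufs8, which carries iron-sulphur clusters, stood at -0.14 ± 0.06 and Ndufv1, the flavin-binding subunit, at -0.11 ± 0.05. Ndufv2, its partner in the NADH-binding part, went the other way at 0.067 ± 0.02. Ndufs1, which carries iron-sulphur clusters as well, stood at 0.021 ± 0.05, within 1 spot error of 0.

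Ndufs3, a core subunit of the arm that protrudes into the matrix, was measured on 10 spots per array. Its spots ran from 5.28 to 5.79 (median 5.51) with the high dose, from 5.79 to 6.21 (median 5.96) with the low dose and from 5.36 to 6.43 (median 6.21) in the control. The spots of the high dose lay just below all those of the low dose and overlapped those of the control. The log2 ratio was -0.15 ± 0.02 for high dose against control.

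Among the accessory subunits of complex I, Ndufc2, a membrane-arm subunit, was the highest. It had relative signals of 15.8 with the high dose, 15.1 with the low dose and 14.1 in the control, a log2 ratio of 0.16 ± 0.05 for high dose against control. Ndufa3 had 11.2 with the high dose, 11.9 with the low dose and 12.7 in the control, at -0.18 ± 0.05. Ndufa7 was the lowest of the complex at -0.19 ± 0.12, under 2 of its spot errors, on a dim probe. Ndufa4, counted here by its name and now regarded as a subunit of complex IV, stood at -0.026 ± 0.05. The probes named Ndufs6 were matched by symbol, and RefSeq also lists Ndufs6 as an older name of a pseudogene, Ndufs6-ps1, so which of them these probes read was not settled.

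Ndufaf4, an assembly factor of complex I, was 1.2-fold higher with the high dose over its 4 probes, at a log2 ratio of 0.27 ± 0.08. Its 3 probes that start at bases 192, 327 and 620 of the transcript were dim, with 1 spot each. The probe at base 192 had relative signals of 0.125 with the high dose, 0.0981 with the low dose and 0.0949 in the control, the one at base 327 had 0.172, 0.138 and 0.137 in the same groups, and the one at base 620 had 0.154, 0.116 and 0.124. All 3 were highest with the high dose. The probe at base 1795, with 2 spots, had 1.35 and 1.32 with the high dose, 1.25 and 1.26 with the low dose and 1.31 and 1.31 in the control. Its log2 ratio was 0.025, where the other probes stood at 0.32 to 0.39, so the value of this gene depends on the probe. The probes lie on chromosome 5 between 39940240 and 39944759 (rn4).

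Complex II, succinate dehydrogenase, links respiration to the citric acid cycle, and none of its 5 genes was apart by more than 2 spot errors for high dose or low dose against control. For high dose against low dose Sdhc was lower by that rule. Of all measured genes 10.7% were higher and 12.8% lower by that rule for high dose against control. The shares were 4.27% and 4.56% for low dose against control and 9.61% and 10.6% for high dose against low dose. In a set of 5 genes such counts do not set the complex apart. Sdha, the flavin subunit, had relative signals of 7.09 with the high dose, 7.45 with the low dose and 7.51 in the control (log2 ratio -0.084 ± 0.06 for high dose against control). Sdhb, the iron-sulphur subunit, stood at 0.0027 ± 0.06. The membrane anchors Sdhc and Sdhd stood at -0.11 ± 0.06 and 0.021 ± 0.02, and the assembly factor Sdhaf2 at -0.079 ± 0.08. The median of -0.079 became 0.075 when the arrays were centred on the spike-ins.

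Complex III moves electrons from ubiquinol to cytochrome c, and none of its 8 genes was apart by more than 2 spot errors for high dose or low dose against control. For high dose against low dose Uqcrc2 was higher and Uqcrc1 lower by that rule, where 9.61% and 10.6% of all measured genes were. The shares against the control are those given for complex II, and such counts among 8 genes do not set the complex apart. Uqcrc1 and Uqcrc2, which encode its paired core proteins, stood on opposite sides, at -0.10 ± 0.06 and 0.095 ± 0.06. Uqcrc2 had relative signals of 5.41 with the high dose, 4.76 with the low dose and 5.07 in the control, and was the 1 gene of the complex that was highest with the high dose. Uqcrfs1, the Rieske iron-sulphur protein, stood at -0.045 ± 0.05.

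Complex IV, cytochrome c oxidase, has several subunits with tissue isoforms, and its 14 measured genes had the highest median of the complexes, 0.040. The gene furthest up among all members was Cox6a2, the heart and muscle isoform of subunit VIa. Its spots gave 7.78 and 7.77 with the high dose, 6.04 and 6.64 with the low dose and 6.27 and 6.19 in the control. Both spots of the high dose lay above all others, and those of the other arrays overlapped. The share of such probes that separate like this over the whole array was not counted. The log2 ratio was 0.32 ± 0.06 for high dose against control, 1.25-fold higher. The probe lies on chromosome 1 at 187464580 to 187464639 (rn4). Cox6a1, the isoform of most tissues, stood at 0.030 ± 0.05.

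Muscle markers were set beside Cox6a2. Of 6, the same 4 (Ckm, Tnnt2, Acta1 and Myog) were well above background on every array, and the myosin genes Myh6 and Myh7 were not on any. Their summed relative signal was 2.38 with the high dose, 2.42 with the low dose and 2.55 in the control, and Ckm made up most of it, with 1.89, 1.93 and 2.03 in the same groups. Tnnt2 was lowest with the low dose and Myog in the control, and the part of muscle-type expression in the value of Cox6a2 was not tested. The other muscle isoform on the array, Cox8b, was well above background on 1 of 2 control spots and on no spot of the treated arrays. The testis isoform Cox8c was not well above background on any spot, and Cox8a, the isoform of most tissues, stood at 0.030 ± 0.02.

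Subunit IV has an isoform, Cox4i2, that is known as a hypoxia-inducible partner of Cox4i1. Cox4i2 gave 1.195 and 1.149 with the high dose, 1.172 and 1.280 with the low dose and 1.165 and 1.138 in the control. The high dose spots overlapped those of both other arrays, and the low dose spots lay just above the control spots. The log2 ratio of Cox4i2 was 0.025 ± 0.07 for high dose against control. Cox4i1 gave 47.8 and 49.4 with the high dose, 48.7 and 49.7 with the low dose and 47.2 and 46.7 in the control. Its log2 ratio was 0.049 ± 0.05. Neither isoform was apart by more than 2 spot errors in any comparison. Other small subunits and isoforms lay within 0.1 of 0, with Cox7a2 at 0.070 ± 0.04, Cox7a2l, a supercomplex assembly factor, at 0.066 ± 0.05, Cox7b at 0.073 ± 0.02 and the testis isoform Cox6b2 at -0.056 ± 0.08. Ndufa4l2, Cox7a1 and Cox7b2 are not among the 94 gene names that the rule found, and have no values here.

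The lowest value of all members belonged to Cox6c-ps1, named as a pseudogene of Cox6c and placed on chromosome 19, and its 2 overlapping probes disagreed. The probes cover positions 54398113 to 54398198 (rn4) and share 34 bases, shown in capitals because the same transcript stretch gave different ratios through them:
Cox6c-ps1 probe from base 604: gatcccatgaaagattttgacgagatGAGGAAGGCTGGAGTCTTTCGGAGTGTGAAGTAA
Cox6c-ps1 probe from base 630: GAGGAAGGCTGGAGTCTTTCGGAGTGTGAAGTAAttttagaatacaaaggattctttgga

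The probe at base 604 gave 7.09 and 5.96 with the high dose, 6.93 and 6.83 with the low dose and 6.99 and 6.51 in the control, with overlap between arrays. The probe at base 630 was near background and gave 0.0316 and 0.0539 with the high dose, 0.0553 and 0.0645 with the low dose and 0.0605 and 0.0696 in the control. Their log2 ratios for high dose against control were -0.053 and -0.65. The set without pseudogenes and like-named copies, which also leaves out Atp5sl, kept 1 member at least 1.2-fold lower, Atp5g3. Cox6c itself stood at 0.054 ± 0.05.

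Complex V makes ATP, and its 18 measured genes had a median of -0.025, with 5 lower and none higher by more than 2 spot errors for high dose against control. The 5 include Atp5sl, which is counted here by its name and is an assembly factor of complex I. Of genes at the members' level 17.5% were lower and 12.8% higher, and spike-in centring turned the median to 0.13. Atp5b, now named Atp5f1b, encodes the β subunit, which holds the catalytic sites of the F1 head, and its probe has 10 spots per array. The probe lies on chromosome 7 at 1378451 to 1378510 (rn4) and is shown because its difference was read from 10 spots on each array:
Atp5b probe from base 746: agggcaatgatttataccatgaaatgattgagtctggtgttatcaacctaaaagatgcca

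Its spots ran from 10.9 to 11.9 (median 11.5) with the high dose, from 12.7 to 14.0 (median 13.4) with the low dose and from 13.0 to 14.2 (median 13.5) in the control. All 10 spots of the high dose lay below all spots of the other arrays, which overlapped with each other. The log2 ratio was -0.24 ± 0.02 for high dose against control, 1.18-fold lower. Of the 15 member probes with 10 spots, Atp5b was the one that lay below the control without overlap, and none lay above it. Over the whole array 7.01% of the 1027 such probes lay below and 6.13% above. Centred on the spike-ins the log2 ratio of Atp5b was -0.084.

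None of the other 4 genes of the F1 head was apart by more than 2 spot errors in any comparison. Atp5a1 (Atp5f1a), the α subunit, had relative signals of 133 with the high dose, 140 with the low dose and 137 in the control (log2 ratio -0.041 ± 0.05 for high dose against control). Atp5c1, the γ subunit of the central stalk, stood at -0.051 ± 0.06, Atp5d, the δ subunit, at -0.089 ± 0.05 and Atp5e, the ε subunit, at 0.088 ± 0.05.

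The c subunit, which forms the rotating ring of the membrane part, is made from 3 genes that encode the same mature peptide. Atp5g3 was 1.22-fold lower with the high dose, at -0.29 ± 0.04, Atp5g1 stood at -0.12 ± 0.05 and Atp5g2 at 0.019 ± 0.04. The value of Atp5g3 rests on 2 probes, and the brighter one alone stood at -0.25, short of 1.2-fold. The one at base 279 lies on chromosome 3 at 56512525 to 56512584 (rn4), the one at base 290 carries no position in the files, and the capitals mark the longest stretch they share:
Atp5g3 probe from base 279: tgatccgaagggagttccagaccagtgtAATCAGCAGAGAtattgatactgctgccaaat
Atp5g3 probe from base 290: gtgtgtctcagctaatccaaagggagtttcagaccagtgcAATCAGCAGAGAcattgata

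The letters around that stretch differ, so the probes are related and not the same. The probe at base 279 gave 23.1 and 22.1 with the high dose, 25.5 and 24.6 with the low dose and 27.5 and 26.3 in the control. The probe at base 290 gave 3.78 and 3.51 with the high dose, 4.33 and 3.51 with the low dose and 4.78 and 4.34 in the control. On both probes the high dose spots lay below the control spots, at log2 ratios of -0.25 and -0.32. On the first the low dose lay between the other arrays without overlap. On the second its spots overlapped with the high dose. How often probes with 2 spots per array separate like this over the whole array was not counted, here or for other genes.

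**Figure D3:**
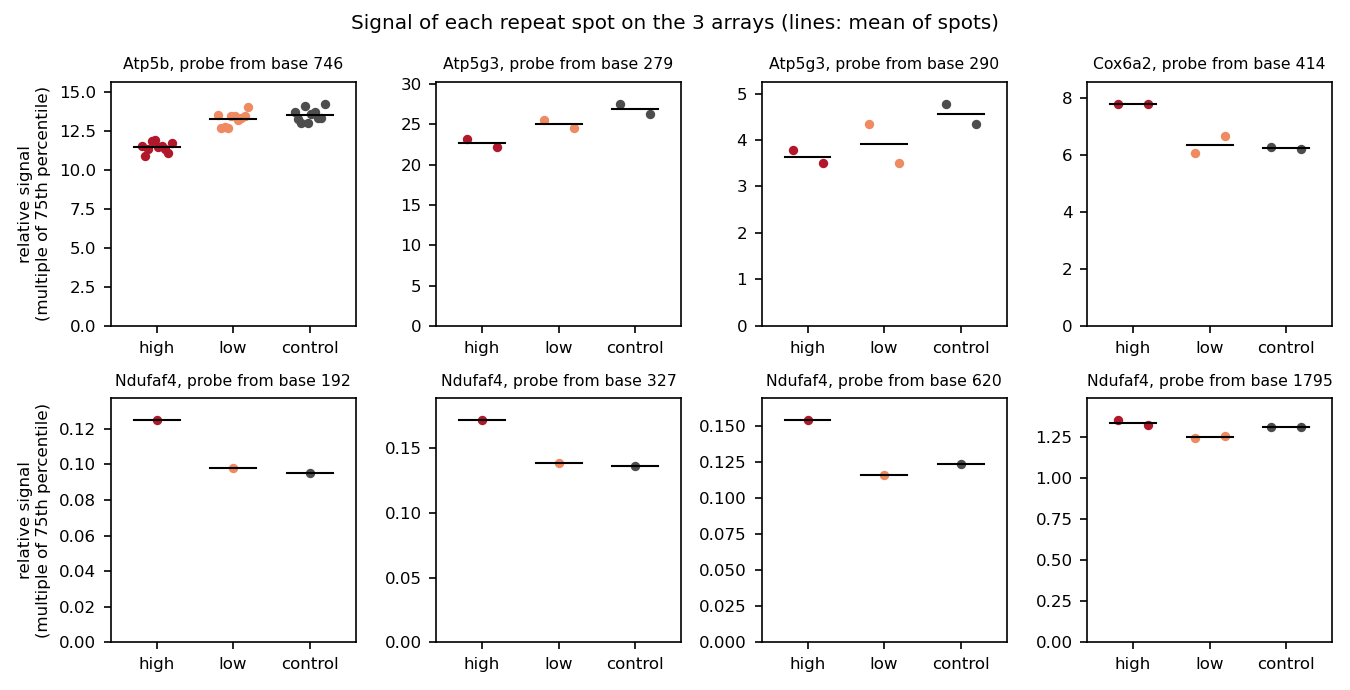
Relative signal (vertical axis, multiples of the array's 75th percentile, from 0) of every repeat spot for Atp5b, both Atp5g3 probes, Cox6a2 and the 4 Ndufaf4 probes, on the high dose, low dose and control arrays. Points are spots and lines their means. The 10 high dose spots of Atp5b lie below the others, those of Cox6a2 above, and the Ndufaf4 probe at base 1795 is level while the other 3 are highest with the high dose.

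Atp5sl was the third member at least 1.2-fold lower, at -0.27 ± 0.11. It is named after an ATP synthase gene and is now called Dmac2, an assembly factor of complex I. It gave 0.165 and 0.177 with the high dose, 0.179 and 0.187 with the low dose and 0.202 and 0.210 in the control, with no overlap between arrays. The peripheral stalk gene Atp5f1 (now Atp5pb) stood at -0.018 ± 0.02 and the membrane subunit Atp5j2 (now Atp5mf) at -0.092 ± 0.04. Atp5hl1, annotated as a copy of another stalk gene, was the highest of the complex at 0.14 ± 0.07.

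The second comparison set the low dose against the control. The members had a median log2 ratio of 0.031, beside 0.0009 over all measured genes and 0.0094 at the members' level. Of 91 members 69 lay above 0, where 50.4% of all 14621 measured genes and 55.3% of genes at the members' level did. Cyclic loess left 58 members above 0 and quantile normalization 62, where 49.0% and 50.8% of all measured genes were. The shift was small: 82 of 91 members (90.1%) lay within 0.1 of 0, where 64.2% of all measured genes and 82.0% at the members' level did. By more than 2 spot errors 11 members were higher, where 4.27% of all measured genes and 6.11% at the members' level were. By the same rule 1 was lower, where 4.56% and 4.62% were. Among the higher ones were Cox7c, Ndufa2, Ndufa5, Ndufv2, Ndufb4, Ndufb3, Ndufa6, Ndufb8, Atp5f1 and Cox8a, and the lower one was Atp5g3, at -0.16 ± 0.04. All 5 complexes had medians above 0, from 0.016 for complex II to 0.046 for complex IV.

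Cox7c, a small structural subunit of complex IV, was the 1 member at least 1.2-fold higher with the low dose, where 3.99% of all measured genes and 0.789% at the members' level were. It was read from 1 spot per array, with relative signals of 0.831 with the low dose and 0.675 in the control, a log2 ratio of 0.30 ± 0.10. No member was at least 1.2-fold lower, where 5.08% of all measured genes and 0.444% at the members' level were. Ndufa2 and Ndufa5, accessory subunits of the matrix arm, stood at 0.12 ± 0.06 and 0.10 ± 0.05.

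The third comparison set the high dose against the low dose, and 71 of 91 members lay below 0, where 53.0% of all 14480 measured genes and 59.3% of genes at the members' level did. The median was -0.049, beside -0.0086 over all measured genes and -0.021 at the members' level. By more than 2 spot errors 3 members were higher (Cox6a2, Ndufaf4 and Uqcrc2), where 9.61% of all measured genes and 10.5% at the members' level were. By the same rule 17 were lower, where 10.6% and 15.8% were. All 7 core subunits of complex I lay below 0 with a median of -0.12, and quantile normalization brought 1 of them above 0. At least 1.2-fold, 2 members were higher (Cox6a2 and Ndufaf4), where 6.97% of all measured genes and 1.56% at the members' level were. At that size 1 was lower (Cox6c-ps1), where 6.13% and 1.67% were. Of the probes with 10 spots, those of Atp5b and Ndufs3 lay below the low dose without overlap, 2 of 15, where 4.87% over the whole array did.

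Across the 3 arrays the low dose array was the one on which a member was most often highest. That held for 54 of 91 members (59.3%), where 30.7% of all measured genes and 35.2% of genes at the members' level were highest on it. The share was 58.7% in complex I, 87.5% in complex III, 50.0% in complex IV and 61.1% in complex V. In complex II, 2 genes were highest with the low dose and 2 in the control. Cyclic loess left 40 members highest with the low dose, where 29.8% of all measured genes were.

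**Figure D4:**
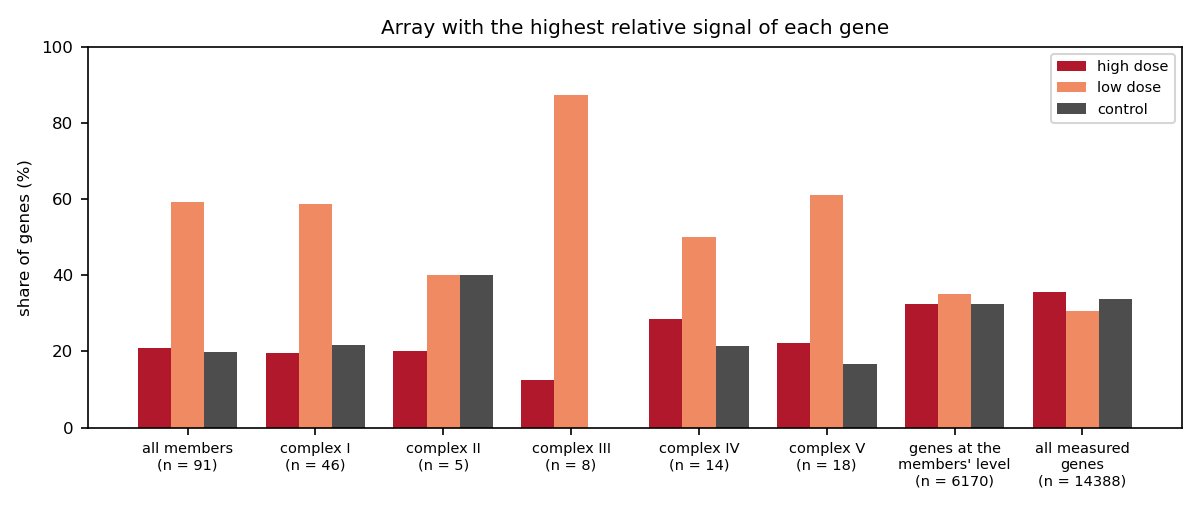
Share of genes (vertical axis, percent) whose relative signal was highest on the high dose, low dose or control array, for all members, each complex, genes at the members' level and all measured genes, with the number of genes under each label. The low dose bar of the members reaches 59.3%, and the bars of all measured genes lie between 30.7% and 35.6%.

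The subunits that mitochondrial DNA encodes fall outside the naming rule and have 12 probes, all well above background, that their descriptions identify. With the high dose 10 of 12 lay below the control and 7 by more than 2 spot errors, with a median of -0.11, where 52.1% of all measured genes lay below and 12.8% by more than 2 spot errors. Centring on the spike-ins turned that median to 0.040. mt-Atp6, the channel subunit of the ATP synthase, had relative signals of 180 with the high dose, 189 with the low dose and 202 in the control, a log2 ratio of -0.17 ± 0.05 for high dose against control. mt-Nd6, a complex I subunit and the one protein-coding gene on the light strand, was the lowest, with 2.39 with the high dose, 3.04 with the low dose and 3.01 in the control (-0.33 ± 0.06). mt-Nd5 was the highest at 0.10 ± 0.05, and mt-Co1, the catalytic subunit of complex IV, stood at 0.0014 ± 0.05. With the low dose 8 of 12 lay below the control and 1 by more than 2 spot errors, where 49.6% and 4.56% of all measured genes did.

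Among 6 further respiratory genes that the files hold under other names, Atpif1 (Atp5if1), the inhibitor of the ATP synthase, stood at 0.052 ± 0.05 for high dose against control. Cox6b1, listed under a locus name, stood at -0.16 ± 0.05, the mean of probes with 1 spot each at -0.093, -0.18 and -0.22. It was the 1 of the 6 past 2 spot errors, where 12.8% of all measured genes were lower and 10.7% higher by that rule. Such a count among 6 genes does not set them apart. A separate locus name that now belongs to Ndufa13 gave 0.039 ± 0.05, and the probe listed as Ndufa13 gave -0.024 ± 0.08.

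Genes around the respiratory chain were counted in the same comparison of high dose with control, in which 10.7% of all measured genes were higher and 12.8% lower by more than 2 spot errors. Of 16 measured genes of the citric acid cycle, 6 were lower and none higher by more than 2 spot errors, with a median of -0.062 that spike-in centring turned to 0.093. The lowest, Idh3a, a subunit of isocitrate dehydrogenase, had relative signals of 0.525 with the high dose, 0.556 with the low dose and 0.614 in the control (-0.23 ± 0.08). The highest, Dld, the dehydrogenase shared by the pyruvate and oxoglutarate complexes, stood at 0.094 ± 0.06. Of 33 measured assembly factors outside the rule, 4 were lower and 2 higher, with Coa7, a complex IV factor, lowest at -0.49 ± 0.14 and Tmem70, an ATP synthase factor, highest at 0.28 ± 0.18.

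Of 14 electron carrier and ubiquinone synthesis genes, 3 were lower and 1 higher by more than 2 spot errors for high dose against control. The shares over all measured genes were 12.8% lower and 10.7% higher. Coq8a, a regulator of ubiquinone synthesis, stood at 0.38 ± 0.11 and Pdss2, which makes the ubiquinone tail, at -0.30 ± 0.14. Cycs, cytochrome c, stood at -0.013 ± 0.05. Of 15 regulators of mitochondrial biogenesis 1 was higher and 1 lower, and Tefm and Ppargc1b were the extremes at 0.23 ± 0.15 and -0.23 ± 0.12. Tfam, which packages and transcribes mitochondrial DNA, stood at -0.0097 ± 0.06, and the respiratory gene activators Nrf1 and Gabpa at 0.069 ± 0.06 and 0.031 ± 0.05. Ppargc1a was not well above background on any array.

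Of 9 measured hypoxia-inducible factor (HIF) targets that act on respiration, 5 were higher and none lower by more than 2 spot errors, with a median of 0.21, where 10.7% of all measured genes were higher and 12.8% lower. Bnip3, a mitophagy receptor, was the highest, with relative signals of 22.4 with the high dose, 19.7 with the low dose and 16.6 in the control (0.43 ± 0.05). Pdk3, another pyruvate dehydrogenase kinase, was the lowest at -0.024 ± 0.06. Mxi1, a MYC antagonist, had relative signals of 1.26 with the high dose, 1.06 with the low dose and 0.940 in the control (0.43 ± 0.05), and Pdk1, which shuts off pyruvate dehydrogenase, had 1.40, 1.30 and 1.17 in the same groups (0.26 ± 0.06). Lonp1, the matrix protease that degrades a subunit IV isoform in hypoxia, stood at 0.20 ± 0.05. Of 10 measured carriers and kinases of ADP and phosphate, Ckmt2, mitochondrial creatine kinase, stood at 0.75 ± 0.17 from a dim probe, and Slc25a3, the phosphate carrier, at -0.037 ± 0.05. Ucp2, an uncoupling protein, had 0.815 with the high dose, 0.960 with the low dose and 0.976 in the control (-0.26 ± 0.03). The lowest was Ucp3 at -0.51 ± 0.26, near background.

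**Figure D5:**
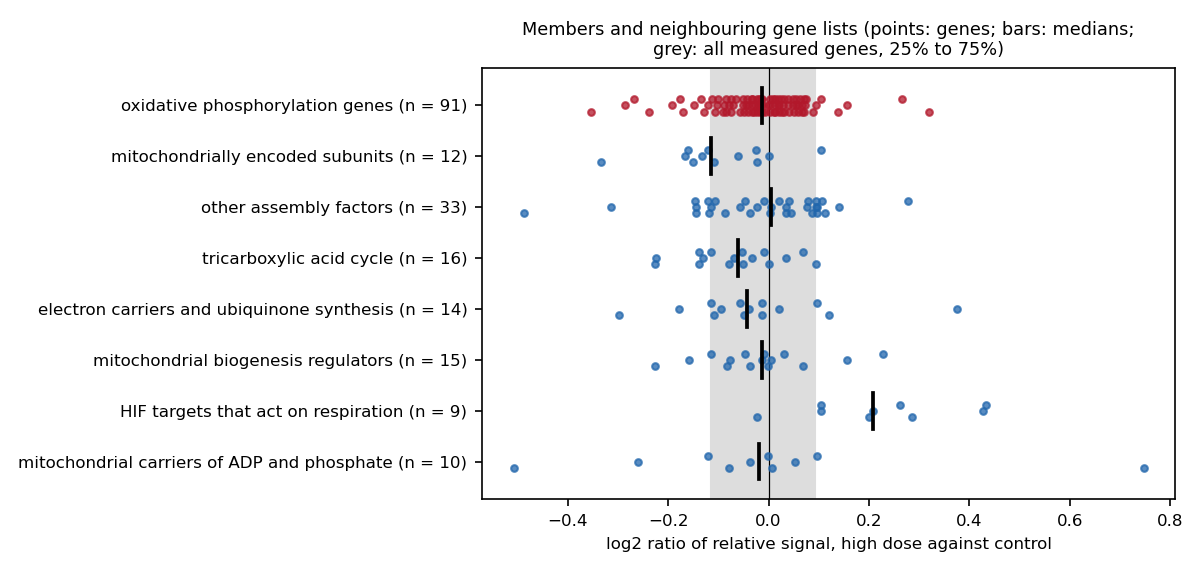
Log2 ratio of relative signal for high dose against control (horizontal axis) of the 91 measured members (red) and of 7 neighbouring gene lists (blue), with medians as black bars and the range from the 25th to the 75th percentile of all measured genes in grey. The median of the members is -0.013, that of the mitochondrially encoded subunits -0.11 and that of the HIF targets 0.21.

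The promoters of the members were read from RefSeq on the GRCr8 build, over the 250 bases before the start site, and 79 members had an entry. NRF1 and the ETS factor GABP are classical activators of respiratory genes. The NRF1 consensus was present on either strand in 13 of 79 members (16.5%), with 9.78% of 8642 genes well above background on all arrays and 4.17% of all 27457 promoters. The ETS motif CCGGAAG was present in 21 (26.6%), against 16.3% and 7.74% in the same sets. The HIF core ACGTG was present in 21 (26.6%), with 23.1% of the genes well above background, and the E-box CACGTG, which contains it, in 6 (7.59%), with 8.37%. The YY1 motif AAGATGGCG and the ERR motif TCAAGGTCA were each found in 1 member. That is 1.27% of members for each, with 1.37% (YY1) and 0.208% (ERR) of the genes well above background. Over all promoters the shares were 0.736% and 0.368%. All these motif matches are letter matches and not binding sites.

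Promoters of the 4 genes whose spots are described at most length are shown, with motif matches in capitals:
Atp5f1b (Atp5b): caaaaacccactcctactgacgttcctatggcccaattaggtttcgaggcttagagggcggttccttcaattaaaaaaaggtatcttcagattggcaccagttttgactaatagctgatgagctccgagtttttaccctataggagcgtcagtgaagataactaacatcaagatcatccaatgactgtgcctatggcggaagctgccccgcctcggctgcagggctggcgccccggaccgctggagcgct
Atp5mc3 (Atp5g3): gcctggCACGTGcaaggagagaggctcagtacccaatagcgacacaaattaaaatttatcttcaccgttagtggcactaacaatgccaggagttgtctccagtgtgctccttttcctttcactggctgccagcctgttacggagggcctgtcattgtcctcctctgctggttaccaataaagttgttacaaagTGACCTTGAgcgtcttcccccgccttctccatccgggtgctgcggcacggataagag
Ndufaf4: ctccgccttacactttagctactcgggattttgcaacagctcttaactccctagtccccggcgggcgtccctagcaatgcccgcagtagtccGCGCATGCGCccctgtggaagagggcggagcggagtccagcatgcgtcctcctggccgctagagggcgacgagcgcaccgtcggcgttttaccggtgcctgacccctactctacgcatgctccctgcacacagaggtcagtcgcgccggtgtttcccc
Cox6a2: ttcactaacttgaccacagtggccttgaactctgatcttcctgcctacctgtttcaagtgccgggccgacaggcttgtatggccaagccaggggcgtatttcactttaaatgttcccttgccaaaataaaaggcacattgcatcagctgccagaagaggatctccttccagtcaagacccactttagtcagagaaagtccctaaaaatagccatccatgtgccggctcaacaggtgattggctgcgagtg

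They lie at chr7:1099808-1100057 on the plus strand, chr3:79220665-79220914 on the minus strand, chr5:43401545-43401794 on the plus strand and chr1:192219717-192219966 on the minus strand. Atp5mc3 carries an E-box, and within it the HIF core, at 244 to 239 bases before the start site and the ERR motif on the opposite strand at 57 to 49 bases before it. Ndufaf4 carries the NRF1 motif at 158 to 149 bases before the start site. None of the searched letters is in the windows of Atp5f1b and Cox6a2.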

How the data were processed

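RNA was hybridised to 3 one-colour arrays (Agilent), 1 each for the high dose, the low dose and the control, as the treatment labels give them. The authors deposited the spot intensity values of each array. Per the file headers these came from Feature Extraction 10.7.3.1 under protocol GE1_107_Sep09 for design 028279, with probe positions on rn4, and the processed signal was background-subtracted within the array. The authors also deposited a table of ratio values with no processing steps given in the sources used here. Checked against the scanner values, each column equalled the processed signal divided by 1 constant (823, 849 and 823 for high dose, low dose and control). It is linear and uncentred between genes, with column medians of 0.0734, 0.0731 and 0.0737, and rescales an array by that constant.

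Values were computed as log2 of the processed signal minus log2 of the array's 75th percentile over 58717 non-control spots. Outlier spots were left out, and a probe was taken as well above background if 50% or more of its spots were. A gene's value was the mean over its probes that passed on both arrays of a comparison. The spot error was pooled from repeat spots in 20 bins of level, and its calculation was tested on simulated data. Their noise was drawn from that same pooled scatter, so the test cannot show that the error suits the real spots. With 1 array per group no test between groups was made. Calls are rules of size: 1.2-fold, 1.5-fold, or 2 spot errors. Slide position and group cannot be told apart. No 2 arrays shared identical values.

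The members and lists were chosen with earlier results of these data known. The rule for named genes took the 2 highest and 2 lowest of each complex and comparison, members 1.5-fold apart, the paired isoforms, the core and catalytic subunits, and the extremes of each neighbouring list, and not every gene it selects is printed. Other genes were named after their values were seen, because they passed 2 spot errors or for their role. Current symbols came from a RefSeq table of GRCr8, which matched 93 of 94 members. The probes of mitochondrial genes were matched by description after the files were seen. Alternatives were quantile normalization, spike-in centring, normexp (limma 3.58.1, offset 50), cyclic loess, other filters on dim probes, the brightest probe of a gene, outlier spots kept, the deposited ratios, and subsets of members. Cyclic loess and the set without pseudogenes and like-named copies were chosen after seeing the data. That set also leaves out Atp5sl and Ndufs6. The values of 1 member are not reported here by name, and it stays in the counts and medians.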

Additional observations from a re-analysis of the deposited data

How the results depend on the processing

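No paired analysis was possible because each group holds 1 array. Spike-in probes had a mean log2 ratio of -0.15 for high dose against control and -0.16 for low dose against control, so centring on them raised every gene by that amount. For high dose against control the median of the members became 0.14, and those of complexes I, II, III, IV and V became 0.14, 0.075, 0.15, 0.19 and 0.13, with complex II changing sign. Counts at 1.2-fold became 4 higher and 0 lower. Of 91 members 84 then lay above 0, where 41 did in the main setting. The genes that changed sign include Atp5j2 and, among those named by rule and lower by more than 2 spot errors, Atp5g1 (0.033), Ndufa8 (0.026), Ndufs3 (0.0053), Ndufs8 (0.019) and Ndufv1 (0.041). For low dose against control the members' median became 0.19, with 0.19, 0.17, 0.18, 0.20 and 0.19 for the complexes and 6 genes higher. The median of all measured genes moved to 0.15 and 0.16 in these comparisons, since the setting adds 1 constant to every gene of a comparison.

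Under all other settings the members' median kept between -0.017 and 0.0034 for high dose against control, 0.015 and 0.043 for low dose against control, and -0.056 and -0.031 for high dose against low dose. The counts at 1.2-fold are small and moved by single genes. For high dose against control the number higher was 1 under normexp, repeat spots all well above background, a floor at the median level, the brightest probe and subunits only, and 4 with no filter on dim probes. The number lower was 1 under normexp, the brightest probe and without pseudogenes and like-named copies. For high dose against low dose the number higher was 1 under the same 5 settings, and the number lower was 0 under normexp, the brightest probe and without pseudogenes and like-named copies, and 2 with no filter. For low dose against control the number higher was 0 under normexp and repeat spots all well above background, and 3 with no filter, which also gave 2 lower. Ndufaf4, Atp5g3 and Cox6c-ps1 leave the 1.2-fold counts with their brightest probes. Dim probes near background limit Cox6c-ps1, Ndufaf4 and Atp5sl, and single spots limit Cox7c. The cause of these moves was not tested beyond the construction of each setting.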
